A study of Mus musculus with 15 samples.

Results

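In whole blood of tumour-bearing mice, 3 of 15 RNA-seq libraries held far less 18S ribosomal RNA than the other 12, and the same 3 libraries were compared here with the 12 across all genes. The 18S RNA was read from Rn18s-rs5, an annotated copy of the gene for the RNA of the small cytosolic ribosomal subunit. Its raw CPM, a library-size scaled level given by the Rn18s-rs5 count over all counts assigned to genes, chose the classes: libraries below 5000 were called 18S-poor and the others 18S-rich. The 18S-poor libraries were untreated replicate 2 and late neck dissection replicates 2 and 3. The classes are therefore defined by a measured RNA level and not by a treatment, and the Rn18s-rs5 values are given below as a description with no test.

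Each library came from 1 C57BL/6 mouse with 5 mice a group. The labels give every animal, the untreated ones included, the same protocol of 4MOSC1 oral carcinoma cells placed in the tongue and grown for 10 days. The untreated group (1 poor, 4 rich) had neither drug nor surgery. The early ND (0 poor, 5 rich) and late ND (2 poor, 3 rich) groups received 2 doses of αCTLA-4, an antibody against the checkpoint receptor CTLA-4, and then an early or a late neck dissection, the removal of the cervical lymph nodes. The sources differ on whether the blood was drawn before or after the late operation. Neither surgery alone nor drug alone was among these libraries, and the early ND group held no 18S-poor library, so the class difference could be measured only within untreated and within late ND. Blood from cheek bleeds was lysed in TRIzol, 100 µL an animal, and RNA was purified on columns with a DNase step. How ribosomal RNA was treated in library preparation, whether by poly(A) selection or by depletion, is not given in the sources used here.

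Ribosomal RNA makes up most of the RNA of a cell. The nuclear 18S, 5.8S and 28S RNAs are cut from 1 precursor made by RNA polymerase I, whereas the 12S and 16S RNAs of the mitochondrial ribosome are transcribed with the mitochondrial mRNAs from the mitochondrial chromosome. Libraries meant to measure mRNA usually remove most ribosomal RNA, so what is left of it reflects both the sample and the preparation. Blood RNA holds in addition a large amount of alpha and beta hemoglobin mRNA from reticulocytes and red cells.

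Stretches of the RNAs that separated the classes are printed so that the cytosolic and mitochondrial molecules can be compared. Rn18s-rs5 spans chr17:40157244-40159092 on the plus strand of GRCm39, 1849 bases of which 55.4% are G or C. The 12S gene mt-Rnr1 spans chrM:70-1024 (955 bases, 35.8% G or C) and the 16S gene mt-Rnr2 chrM:1094-2675 (1582 bases, 35.4% G or C), both on the plus strand. The first lines show chr17:40158408-40158487 of Rn18s-rs5 and chrM:549-628 of mt-Rnr1, which hold a stretch of 20 bases that a scan found to be 17 of 20 identical between the small-subunit RNAs. Capitals mark the identical bases of that stretch, and another alignment of the pair also reached 17 of 20. The third line gives the first 80 bases of mt-Rnr2, chrM:1094-1173, with no capitals because no stretch was compared.
Rn18s-rs5: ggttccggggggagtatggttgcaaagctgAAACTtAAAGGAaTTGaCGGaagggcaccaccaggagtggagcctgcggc
mt-Rnr1: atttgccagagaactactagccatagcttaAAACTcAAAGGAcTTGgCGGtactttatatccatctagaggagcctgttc
mt-Rnr2: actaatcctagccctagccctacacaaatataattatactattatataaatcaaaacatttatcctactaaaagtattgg
A search for longer similarity at an E value of 1e-05 found no match among Rn18s-rs5, mt-Rnr1, mt-Rnr2, Lars2 and Mir6236 RNAs. The search held no 28S or 45S ribosomal RNA, so similarity of Lars2, Mir6236 or ENSMUSG00000118642 to those RNAs was not checked. Elsewhere in GRCm39, matches of at least 150 bases, the read length, numbered 15 for Rn18s-rs5, 1 for mt-Rnr1 and 3 for mt-Rnr2. The longest match of Rn18s-rs5 covered 996 bases at 79.6% identity on chromosome 10.

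Rn18s-rs5 lay at 766 raw CPM in untreated replicate 2, and at 313 and 521 in late ND replicates 2 and 3. The 18S-rich untreated libraries stood at 105889, 50301, 36565 and 46351, the rich late ND libraries at 13402, 23673 and 25967, and the early ND libraries between 34456 and 47445. The highest poor library (766) and the lowest rich library (13402) were 17.5-fold apart, so no library lay near the limit of 5000. Wilson 95% intervals, which cover counting error only, ran from 749.5 to 782.5 for the highest poor library and from 13322 to 13483 for the lowest rich library. As a share of gene counts the 18S RNA took 0.0313% to 0.0766% in the poor libraries against 1.34% to 10.6% in the rich ones. Ranked by count, Rn18s-rs5 was between the 3rd and the 5th gene of every rich library and the 80th, 412th and 195th of untreated replicate 2 and late ND replicates 2 and 3. The top gene also changed with the class: it was Hbb-bs in all 12 rich libraries and Hba-a1 in all 3 poor ones.

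Counts were high in the poor libraries once Rn18s-rs5 was set aside. Counts assigned to genes other than Rn18s-rs5 came to 10787831 to 13917113 in the poor libraries and to 5242075 to 10670832 in the rich ones, with no overlap. Within groups the poor libraries had 4598550 more such counts (two-sided exact permutation test over the 50 assignments of the classes within groups, p = 0.02, the smallest this design allows, and 0.046 after Benjamini-Hochberg adjustment over 23 library measures). With Rn18s-rs5 included the classes overlapped, since late ND replicate 4, a rich library, had 10929570 gene counts and untreated replicate 2 had 10796099. Of the 10 measures at an adjusted p of 0.046, 9 could be taken with hemoglobin left out of the total. Among them only the mitochondrial rRNA, ribosomal protein and long noncoding RNA shares use that total, so the others could not change. The mitochondrial rRNA share kept an exact p of 0.02 (difference -3.16 percentage points, -1.80 before). The ribosomal protein and long noncoding RNA shares did not keep it. The measures still at 0.02 rose to an adjusted p of 0.0571, over fewer measures of which fewer stood at the smallest p. Leaving out any 1 of the 10 untreated and late ND libraries leaves fewer assignments to compare, and the lowest adjusted p was then 0.0575. The early ND libraries do not enter this test. The share of uniquely aligned pairs that fell in no gene overlapped, with 52.5% to 55.0% in the poor libraries and 50.6% to 55.1% in the rich ones (p = 0.34 by the same exact test). Genes detected at a common depth did not separate either (exact p = 0.28). The part of depth in the differences below was not tested.

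Across the 14616 genes that passed the count filter, the class difference centred on the mitochondrial ribosomal RNAs and Lars2. A quasi-likelihood model of edgeR with a term for group called no gene higher and 3 genes lower in the 18S-poor libraries at an adjusted p under 0.05 (0.0205% of the genes tested): mt-Rnr1, mt-Rnr2 and Lars2. At an unadjusted p under 0.05 the same model had 619 genes higher (4.24%) and 920 lower (6.29%). DESeq2 with the same design called 43 genes higher and 46 lower, of which 85 of 89 had the poor libraries beyond all rich ones in both groups and 25 had a log2 fold change beyond 1 in size. In what follows a gene passed if edgeR called it, unless DESeq2 is named. The poor libraries lay above all rich libraries of their own group, in both groups, for 531 genes (3.63%) and below them for 621 (4.25%). The p-values measure the spread between these libraries, and the contrast rests on 1 and 2 poor libraries. Because Rn18s-rs5 defined the classes it was left out of this fit.

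**Figure D1:**
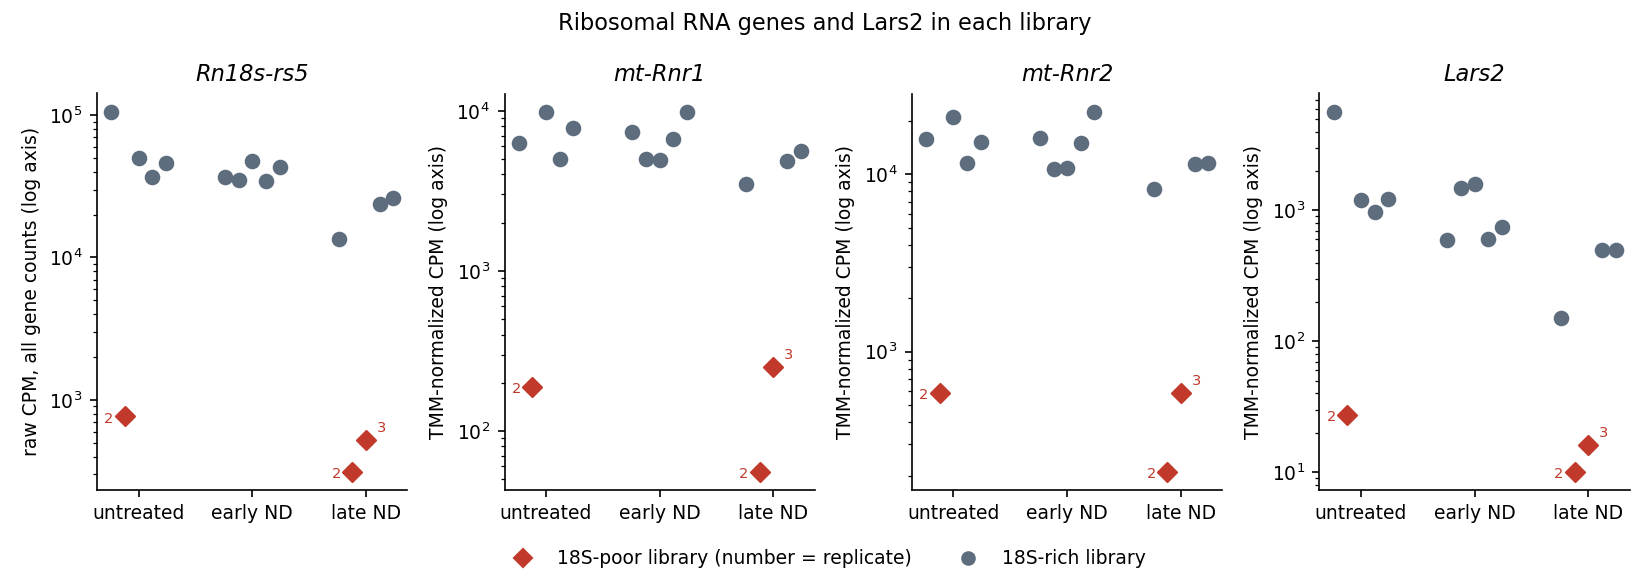
Each point is 1 library, with untreated, early ND and late ND side by side on log axes: raw CPM for Rn18s-rs5 and TMM-normalized CPM for mt-Rnr1, mt-Rnr2 and Lars2. The 3 numbered diamonds, the 18S-poor libraries, lie below all 12 rich libraries in the 4 panels, at 211 to 583 CPM for mt-Rnr2 against 8221 or more.

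The mitochondrial 16S RNA, mt-Rnr2, is part of the large subunit of the mitochondrial ribosome. Its level, as CPM scaled by TMM normalization factors and computed without Rn18s-rs5, was 583 in untreated replicate 2, 211 in late ND replicate 2 and 583 in late ND replicate 3. In the rich libraries it was 15829.9, 20996, 11595 and 15214 for untreated, 8221, 11427 and 11558 for late ND, and 10763 to 22570.2 for early ND. All 3 poor libraries thus lay below every rich one, and the lowest rich library was 14.1-fold above the highest poor. Rich untreated libraries averaged 15908 ± 3872 CPM (SD, n = 4), 27.3-fold the single poor one. Rich late ND libraries averaged 10402 ± 1890 (SD, n = 3) against 397 ± 263 (SD, n = 2), a 26.2-fold difference. The fitted log2 fold change of mt-Rnr2 was -4.73 (SE 0.45, adjusted p = 0.000256 by edgeR).

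The 12S RNA of the small subunit, mt-Rnr1, was also lower in the poor libraries. Its TMM-normalized CPM was 188 in untreated replicate 2, and 55.6 and 251 in late ND replicates 2 and 3. The rich libraries gave 6315, 9894, 4979 and 7834 for untreated, 3473, 4824 and 5616 for late ND, and 4899 to 9789 for early ND. The classes did not overlap, with 13.8-fold between the nearest libraries. The rich means exceeded the poor ones 38.6-fold within untreated and 30.2-fold within late ND, and the fitted log2 fold change was -5.05 (SE 0.51, adjusted p = 0.000288 by edgeR). Late ND replicate 2 was the lowest library for Rn18s-rs5, mt-Rnr1 and mt-Rnr2. Untreated replicate 2 was above late ND replicate 3 for Rn18s-rs5 (766 against 521 raw CPM) but below it for mt-Rnr1 (188 against 251). The ratio of mt-Rnr1 to mt-Rnr2 was 2 to the power of -1.63, -1.92 and -1.22 in the poor libraries against -1.33 to -0.96 in the rich ones, a difference that did not pass (exact p = 0.06, adjusted p = 0.115).

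The same pair led when the class effect was fitted within each group, in a model over all 15 libraries that share 1 estimate of the spread. Within late ND (2 poor, 3 rich) edgeR called mt-Rnr1 (log2 fold change -4.92, SE 0.65, adjusted p = 0.0134) and mt-Rnr2 (-4.71, SE 0.58, adjusted p = 0.0124) lower and no gene higher, 0.0137% of the genes tested. The count of 0 higher compares with 545 genes at an unadjusted p under 0.05 (3.73%) and with 16 called by DESeq2. In the lower direction 492 genes (3.37%) were at an unadjusted p under 0.05 and DESeq2 called 20. No gene was called within late ND without late ND replicate 2, in a fit on the late ND libraries alone, without the early ND libraries or with a replicate block. Within untreated 1 library stood against 4, the lone poor library was assumed to vary like the others, and no gene passed in edgeR. There mt-Rnr2 was at -4.77 (SE 0.80) and mt-Rnr1 at -5.27 (SE 0.91), each with an adjusted p of 0.178, while 143 genes higher (0.978%) and 329 lower (2.25%) had an unadjusted p under 0.05 and DESeq2 called 0 higher and 4 lower. The difference between the class effects, late ND minus untreated, was 0.06 (SE 0.74) for mt-Rnr2 and 0.35 (SE 0.82) for mt-Rnr1 on the log2 scale, and no gene passed a test of it in edgeR (unadjusted p under 0.05 for 154 genes higher, 1.05%, and 117 lower, 0.8%, and none called by DESeq2). Over all genes, 46.5% had a class effect above 0 and 53.5% below 0 within late ND, 44.3% above and 55.7% below within untreated, and the difference of the effects was above 0 for 55% and below 0 for 45%.

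Lars2, the nuclear gene of the leucyl-tRNA synthetase of mitochondria (chr9:123195952-123291731, plus strand of GRCm39), was the third gene called. Whether its counts hold reads of 28S ribosomal RNA was not tested. Its TMM-normalized CPM was 27.4, 10.1 and 16.1 in untreated replicate 2 and late ND replicates 2 and 3. The rich libraries varied widely, with 5707, 1195, 974 and 1224 for untreated, 151, 495 and 495 for late ND, and 596 to 1590.4 for early ND. The lowest rich library still stood 5.49-fold above the highest poor one. The log2 fold change was -5.38 (SE 0.79, adjusted p = 0.0208 by edgeR). Untreated replicate 1, the library richest in 18S RNA, was the highest for Lars2 but not for mt-Rnr1 or mt-Rnr2. The call was lost without untreated replicate 2 or any one of late ND replicates 2, 3, 4 and 5 (adjusted p up to 0.346), although the log2 fold change then stayed between -5.77 and -4.86.

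The gene ENSMUSG00000118642, which the annotation used here does not name, came next without passing (log2 fold change -4.02, SE 0.66, adjusted p = 0.0603 by edgeR). The call depended on the processing: ENSMUSG00000118642 passed in edgeR with Rn18s-rs5 kept (adjusted p = 0.0473), with library totals (0.00011), without a count filter (1.77e-05), without late ND replicate 1 (0.0459) and without untreated replicate 1 (0.00433), and by DESeq2 (8e-13), whereas its edgeR adjusted p reached 0.346 when other libraries were left out. It was at 56.5, 65.4 and 50.3 TMM-normalized CPM in the poor libraries and at 6980.1, 3171, 1563 and 1903 in rich untreated, 369, 679 and 572 in rich late ND and 1253 to 2860.1 in early ND libraries. Poor and rich libraries did not overlap, but the fold between class means was 60.2 within untreated and 9.33 within late ND. The difference of its class effect between groups was 2.69 (SE 0.93, unadjusted p = 0.0110 by edgeR), which did not pass after adjustment.

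The microRNA gene Mir6236 (chr9:110110355-110110477, plus strand of GRCm39, 123 bases) is shown because it lay with these genes among those of low count. Its mature product as listed by RefSeq, in a table built on GRCm38.p6, occupies bases 67 to 85 of the gene, and its seed, bases 2 to 8, is in capitals.
mmu-miR-6236: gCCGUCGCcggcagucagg
The gene had 9, 0 and 6 counts in untreated replicate 2 and late ND replicates 2 and 3, or 0.641, 0 and 0.264 TMM-normalized CPM. Rich libraries ranged from 0.465 to 88.2, the highest being untreated replicate 1 and the lowest late ND replicate 1, so that the classes overlapped when groups were joined but not within groups. The log2 fold change was -4.97 (SE 1.18), which did not pass (adjusted p = 0.322 by edgeR). Mir6236 passed without a count filter (adjusted p = 0.00575 by edgeR) and with DESeq2 (adjusted p = 0.00207). These libraries do not measure mature microRNAs, so the value belongs to longer RNA reads over the gene.

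In size 4 genes stood apart. Restricting to the 9453 genes that averaged 50 or more counts, 4 had a log2 fold change under -4, namely mt-Rnr1, mt-Rnr2, Lars2 and ENSMUSG00000118642, and none lay between -4 and -3. In the other direction 4 of the 9453 exceeded 1. Among the 967 genes with at least 1000 counts, 9 were under -2 and none over 1, the largest rise being 0.73. The 9 were the same 4 genes with Hbb-bs, Scd3, Elovl5, Psapl1 and Bpifa6, none of which passed the test.

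**Figure D2:**
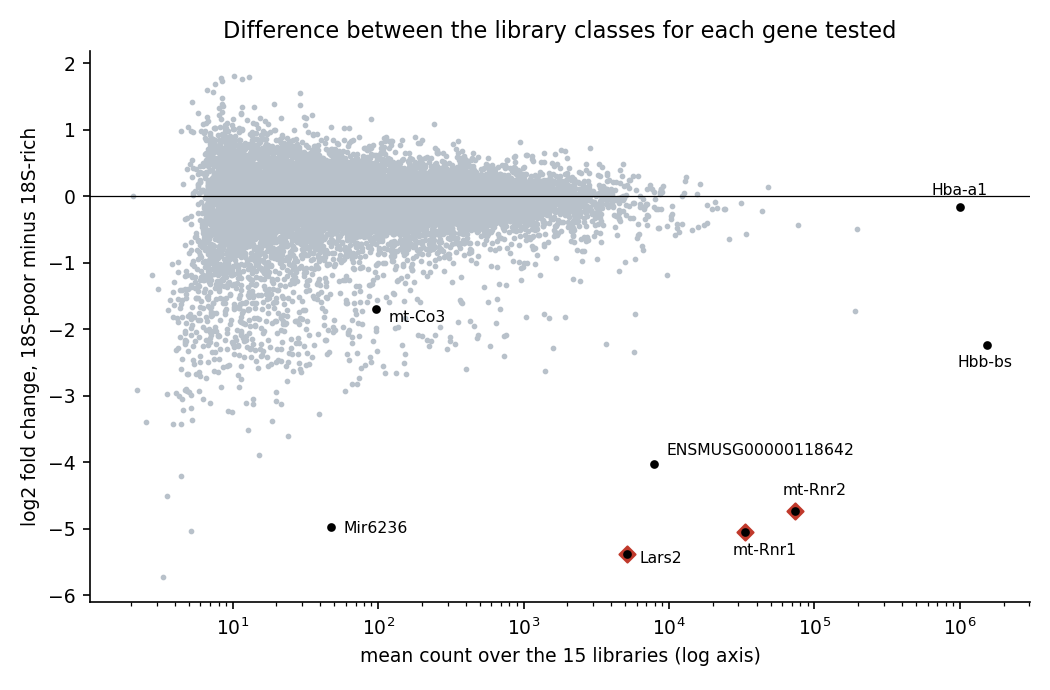
Each point is 1 of 14616 genes, with its mean count on a log axis and its log2 fold change (18S-poor minus 18S-rich) from edgeR; red diamonds mark the 3 genes with an adjusted p under 0.05. The mitochondrial rRNAs, Lars2 and ENSMUSG00000118642 lie under -4 at high counts, while Hba-a1 (-0.17) lies near 0 and Hbb-bs at -2.23.

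Messenger RNAs of the mitochondrial chromosome did not share the size of that difference. The share of all mitochondrial mRNAs in gene counts without Rn18s-rs5 was 1.34%, 1.18% and 1.38% in the poor libraries, inside the range of 0.484% to 2.20% in the rich ones (exact p = 0.74). Mitochondrial rRNA took 0.1003%, 0.0478% and 0.136% in the poor libraries against 1.02% to 2.84% in the rich ones. The log2 ratio of mitochondrial rRNA to mRNA was therefore -3.74, -4.63 and -3.34 in the poor libraries and between -0.41 and 1.82 in the rich, 4.64 lower within groups (exact permutation p = 0.02, adjusted p = 0.046). The most abundant of these mRNAs, mt-Co1, which codes for a core subunit of cytochrome c oxidase, had 4639 TMM-normalized CPM in the poor untreated library against 4997 to 6333 in rich ones. In late ND it had 3096 and 3789 in poor libraries against 3034, 3342 and 5592 in rich ones, so its classes overlapped.

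Of the 11 mitochondrial mRNAs tested, none passed in edgeR, DESeq2 called 3 lower, and all 11 had a log2 fold change below 0, with a median of -0.40 beside -0.03 for all genes tested, of which 54.7% were below 0. Under plain library totals 5 of the 11 were below 0, but all 11 stayed below the median of all genes. The 4 that lay below every rich library of their group were mt-Atp6 (-1.59), mt-Co3 (-1.70), mt-Co2 (-1.25) and mt-Nd4l (-1.77), with adjusted p of 0.259, 0.259, 0.350 and 0.427 by edgeR. Of all 14616 genes tested 4.25% lay below in both groups in this way, and DESeq2 called 46 genes lower. Without a count filter mt-Atp6 and mt-Co3 passed (adjusted p = 0.00575 for each by edgeR), and DESeq2 called mt-Atp6 (adjusted p = 0.000931), mt-Co3 (0.00137) and mt-Co2 (0.0304). These 4 code for subunits of ATP synthase, cytochrome c oxidase and complex I, and they were thinly counted, with means of 8.87 to 138 counts against 2895 to 43708 for the other 7, which ranged from -0.58 to -0.21. Sequence set these 4 apart as well: all of their 150-base windows also occur in the nuclear chromosomes of GRCm39. That share was 59.2% for mt-Nd4, 23.6% for mt-Co1 and 0% for mt-Nd1, mt-Nd2, mt-Nd5, mt-Nd6, mt-Cytb, mt-Rnr1 and mt-Rnr2. The counting used here kept reads of unique placement, so the levels of mt-Atp6, mt-Co2, mt-Co3 and mt-Nd4l are uncertain. Of 22 mitochondrial tRNA genes 5 could be tested and none passed, with mt-Ty at -1.13 (adjusted p = 0.527) and mt-Tq at -0.61 (adjusted p = 0.583).

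The balance of adult hemoglobin transcripts also differed between the classes without overlap. Hba-a1 and Hba-a2 (chromosome 11, from 32233186 and from 32246168 in GRCm39, plus strand) code for alpha globin. Hbb-bs and Hbb-bt (chromosome 7, from 103475730 and from 103461727, minus strand) code for the adult beta globins. Hbb-bs counts were 0.557, 0.444 and 0.456 times those of Hba-a1 in the poor libraries and 1.63 to 2.28 times in the rich ones. On the log2 scale the ratio averaged 1.07 ± 0.14 (SD, n = 4) in rich untreated libraries beside -0.84 in the poor one. In late ND it averaged 0.94 ± 0.08 (SD, n = 3) in rich and -1.15 ± 0.03 (SD, n = 2) in poor libraries. Early ND libraries, all rich, lay between 0.70 and 1.17, so the balance of beta over alpha was turned in each poor library and in no rich one. The within-group difference was -1.9997 (exact permutation p = 0.02, adjusted p = 0.046).

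The second pair moved with the first but less. The log2 ratio of Hbb-bt to Hba-a2 was -0.84, -0.87 and -1.60 in the poor libraries and -0.01 to 0.90 in the rich (difference -1.15, exact p = 0.02, adjusted p = 0.046). Within the beta pair, Hbb-bt over Hbb-bs was 0.54 higher in the poor libraries (exact p = 0.02, adjusted p = 0.046), whereas within the alpha pair Hba-a2 over Hba-a1 did not pass (difference -0.31, exact p = 0.24). Adding both genes of each kind, beta counts were 0.558, 0.456 and 0.434 times alpha counts in the poor libraries and 1.60 to 2.15 times in the rich.

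Of the single genes, Hbb-bs carried the larger difference. It took 9.61%, 4.71% and 5.07% of gene counts without Rn18s-rs5 in the poor libraries, against 25.8% to 39.3% in rich untreated and 8.54% to 17.3% in rich late ND libraries (exact p = 0.02, adjusted p = 0.046). Hba-a1 took 17.24% in the poor untreated library, where rich ones had 13.4% to 17.23%. In late ND it took 10.6% and 11.1% in poor libraries, where rich ones had 4.73% to 8.84% (exact p = 0.08 and adjusted p = 0.131 over both groups). The 4 genes together took 31.6%, 17.5% and 19.3%, which overlapped the rich late ND libraries, the lowest of which had 15.3% (exact p = 0.08). In the edgeR fit no hemoglobin gene passed: Hbb-bs was at -2.23 (SE 0.79, adjusted p = 0.395), Hbb-bt at -1.73 (SE 0.64, adjusted p = 0.395), Hba-a2 at -0.48 and Hba-a1 at -0.17. Scaled by TMM, Hba-a1 lay lower in the poor library within untreated (log2 fold change -0.89) and higher in the poor libraries within late ND (0.24). Under plain library totals Hbb-bs passed in edgeR at -1.64 (adjusted p = 0.00067), and 2 of the 4 hemoglobin genes were above 0.

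Shared sequence limits what each hemoglobin gene's count means. The coding sequences of Hba-a1 and Hba-a2 differ at 1 of 429 bases and those of Hbb-bs and Hbb-bt at 1 of 444. Of the 150-base windows of the transcripts, 61.0% of Hba-a1, 72.1% of Hba-a2, 54.6% of Hbb-bs and 50.6% of Hbb-bt occur in the partner too. Reads from those windows have more than 1 placement, so the split within a pair is uncertain. The ratio of beta to alpha was also turned with both genes of each kind added.

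**Figure D3:**
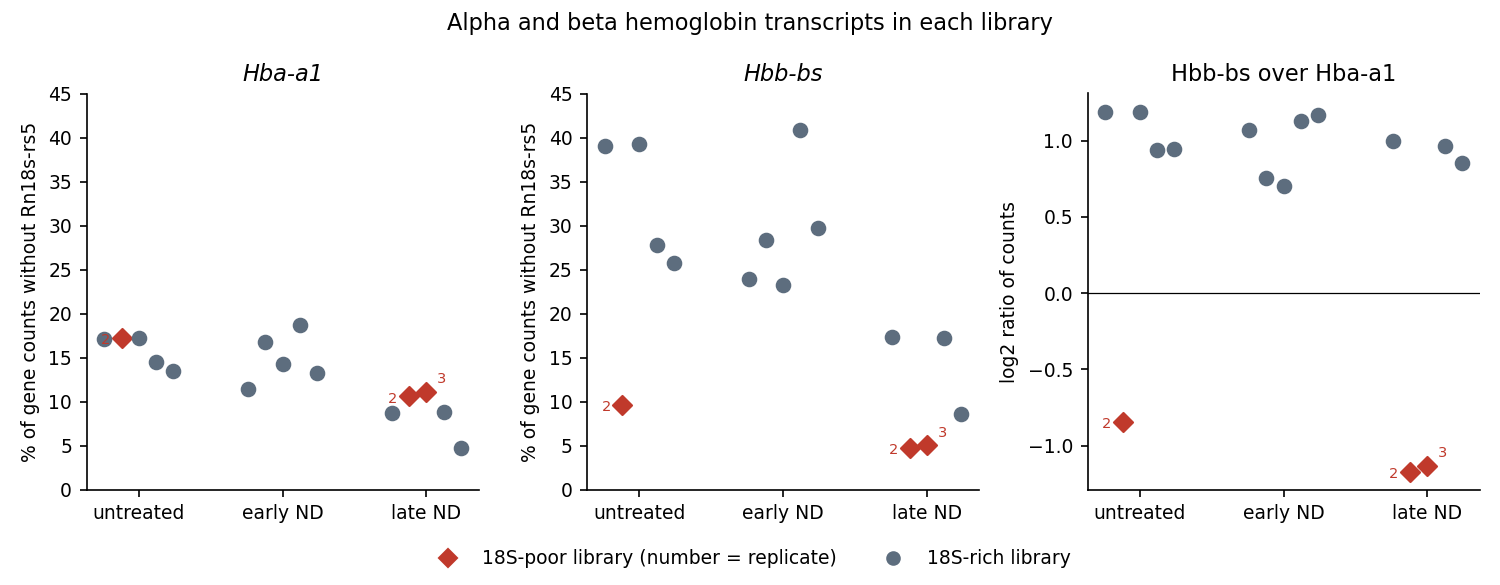
Each point is 1 library, with the share of Hba-a1 and of Hbb-bs in gene counts without Rn18s-rs5 (percent) and the log2 ratio of Hbb-bs to Hba-a1 counts by group. The 3 diamonds, the 18S-poor libraries, lie between -1.17 and -0.84 in the ratio panel and the 12 rich libraries between 0.70 and 1.19. The Hba-a1 shares overlap when groups are joined. Poor libraries lie higher within late ND and, by a narrow margin (17.24% against at most 17.23%), within untreated.

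Other red cell genes did not reach the test. Of 14 erythroid genes, which serve the red cell membrane and heme synthesis, none passed, 13 were below 0 and the median log2 fold change was -0.67 beside -0.03 for all genes, of which 54.7% were below 0. With library totals 8 of the 14 were below 0 and the median was -0.05, beside 0.47 for all genes. The membrane skeleton genes Epb42 (-1.46, adjusted p = 0.489) and Ank1 (-1.26, adjusted p = 0.550), the anion exchanger Slc4a1 (-0.996, adjusted p = 0.592) and ferrochelatase, Fech (-0.93, adjusted p = 0.529), had the smallest p of the list by edgeR. The summed raw CPM of the whole erythroid list without Rn18s-rs5 was 22131 in the poor untreated library, within 11434 to 31719 in the rich ones, and 9612 to 12217 in the poor late ND libraries beside 6693 to 12209 in the rich. Whether such sums follow from fewer cells of a type or from less RNA in each cell cannot be told apart in whole blood.

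The protein parts of the ribosome and the makers of 18S RNA were near the level of all genes. Of 81 cytosolic ribosomal protein genes tested of 86 listed, none passed, with 48 above and 33 below 0 and a median of 0.01 (0.11 within late ND, -0.11 within untreated). Rps10 was at 0.65 (adjusted p = 0.432 by edgeR) and Rpl22l1 at 0.39 (adjusted p = 0.410). As a share of gene counts without Rn18s-rs5 these genes took 3.06%, 3.54% and 3.02% in the poor libraries and 1.43% to 2.59% in the rich ones (exact p = 0.02, adjusted p = 0.046). With hemoglobin left out of the total the difference shrank from 1.04 to 0.511 percentage points and did not pass (exact p = 0.12, adjusted p = 0.218). The share and the fold change differ because the fold change is scaled by TMM, whose factors ran from 0.461 in untreated replicate 1 to 1.80 in late ND replicate 2. Under plain library totals the median of all genes moved from -0.03 to 0.47 and 12762 of the 14616 genes lay above 0, so list medians are read against that of all genes. Of 15 RNA polymerase I genes, none passed and the median was 0.03, with the initiation factor gene Taf1c at 0.32 (adjusted p = 0.446) and the subunit gene Polr1b at 0.30 (adjusted p = 0.545). Of 30 genes of 18S maturation and ribosome assembly, none passed, 22 were above 0 and the median was 0.10 (0.23 within late ND, -0.01 within untreated). Nop10, a component of the RNPs that pseudouridylate ribosomal RNA, was at 0.52 (SE 0.16, adjusted p = 0.395). Poor libraries were above all rich ones in both groups for Nop10 and below them for Nhp2 (-0.13), the only members so placed.

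Among RNAs that carry no poly(A) tail, the small structural and small nucleolar RNAs were thinly counted. Of 14 small structural RNAs 1 could be tested, Rn7sk, the 7SK RNA that holds the elongation factor P-TEFb inactive, at -0.12 (adjusted p = 0.964 by edgeR), and 9 had no count in any library. Of 164 small nucleolar RNAs 2 could be tested, Snord104 at 0.15 and Snord89 at 0.18, neither passing, and 104 had no count in any library. The summed small nucleolar RNA share was higher in the poor libraries before adjustment (exact p = 0.04, adjusted p = 0.0836). Of 67 replication-dependent histone genes, whose mRNAs also end without a poly(A) tail, 20 were tested, none passed and the median was -0.03, with H1f2 at -0.59 (adjusted p = 0.404) and H3c11 at -0.95 (adjusted p = 0.468).

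Genes annotated as long noncoding RNA took a higher share in the poor libraries within each group, a call that was lost with hemoglobin left out of the total (exact p = 0.04, adjusted p = 0.1). The share was 1.91% in the poor untreated library against 0.810% to 1.44%, and 2.53% and 2.34% in the poor late ND libraries against 1.89% to 2.30% (exact p = 0.02, adjusted p = 0.046). Of 9 nuclear long noncoding RNAs tested, none passed in edgeR, DESeq2 called Mir142hg higher, and the median was 0.38 (0.28 within late ND, -0.08 within untreated). Neat1, the scaffold RNA of paraspeckles, was at 0.44 (SE 0.14, adjusted p = 0.395 by edgeR), with 399 TMM-normalized CPM in the poor untreated library against 226 to 284. Malat1, a nuclear speckle RNA, was at -0.47 (adjusted p = 0.462), with 578 against 660.5 to 1226, so members of the list lay in opposite directions.

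No rise passed in edgeR, where DESeq2 called 43, and those named here had the smallest p among genes that averaged 50 or more counts. Pabpn1, the nuclear poly(A)-binding protein, had 18.7 TMM-normalized CPM in the poor untreated library against 11.8 to 13.3 in rich ones, and 17.2 and 19.2 in poor late ND against 12.3 to 12.7. Its log2 fold change was 0.54 (SE 0.12, adjusted p = 0.259 by edgeR). Dtx3 (0.77), Fbxl12 (0.49), Ppcdc (0.66) and Mir142hg (0.59) followed at adjusted p of 0.259 to 0.271, each with poor libraries above all rich ones in both groups. Of all genes tested 3.63% were placed in this way. The 5 genes were chosen by their small p, so their separation is no further test. DESeq2 called all 5, at adjusted p of 0.000931 to 0.0189. Mir142hg is the host transcript of a microRNA of blood cells and Ppcdc an enzyme of coenzyme A synthesis.

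Marker genes of the blood cell types did not pass in any list by edgeR, and their medians lay on either side of that of all genes. Against the median of all genes, the B cell list stood 0.61 higher with TMM and with library totals alike, and the monocyte list 0.33 lower with either. Of 14 B cell genes all were above 0, where 45.3% of all genes were, with a median of 0.58. An unadjusted p under 0.05 was reached by 8 of the 14, and by 4.24% of all genes in that direction. The antigen receptor component Cd79a was at 0.70 (SE 0.24) and the IgD heavy chain, Ighd, at 0.73 (SE 0.26), each with an adjusted p of 0.395 by edgeR. In late ND, Cd79a had 275 and 211 TMM-normalized CPM in the poor libraries against 139, 89.8 and 131 in the rich. In untreated the poor library had 197, inside the range of 130.4 to 229 of the rich libraries. The list's median was thus 0.87 within late ND and 0.05 within untreated, while the difference of the class effect for Cd79a was 0.85 (SE 0.47, unadjusted p = 0.0882). Of 16 T cell genes 14 were above 0 with a median of 0.23, led by Lat (0.26) and Cd8b1 (0.35). The summed raw CPM of the B cell list without Rn18s-rs5 was 2995 in the poor untreated library against 1221 to 1713, and 3747 and 5620.3 in poor late ND libraries against 1371 to 2611, with no member at 0. The part of B cell RNA in the class difference was not tested.

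The monocyte and neutrophil lists had medians below that of all genes. All 12 monocyte genes were below 0 with a median of -0.36 (4 of 12 with library totals), where 54.7% of all genes were below 0. An unadjusted p under 0.05 was reached by 6.29% of all genes in that direction and by 3 of the 12: the matrix proteoglycan Vcan (-0.79), the growth factor receptor Csf1r (-0.43) and the clotting factor F13a1 (-0.66), at adjusted p of 0.397 to 0.452 by edgeR. Of 15 neutrophil genes 10 were below 0 and the median was -0.16, but it was -0.49 within late ND and 0.36 within untreated. With library totals 4 of the 15 were below 0 and the median was 0.34, beside 0.47 for all genes. The granule genes Ltf (-1.59, adjusted p = 0.395) and Camp (-1.28, adjusted p = 0.451) led. The list's summed raw CPM was 16277 in the poor untreated library against 2843 to 11655, and 12022 and 20962 in poor late ND libraries against 14844 to 21511, and the part of neutrophil RNA was not tested. In late ND, Ltf had 2.25 and 2.47 TMM-normalized CPM in poor libraries against 11.3, 6.47 and 17.3 in rich ones, and in untreated 7.48 against 1.81 to 22.3. All 18 interferon-stimulated genes were below 0 with a median of -0.39 (5 of 18 with library totals), none at an unadjusted p under 0.05, with Ifit1 at -0.99 (SE 0.62) and Isg15 at -0.74 (SE 0.59). Platelet (12 genes, median -0.08), dendritic cell (9 genes, -0.05), NK (11 genes, 0.09) and basophil and eosinophil genes (9 genes, 0.15) had medians closer to 0. The groups differed in sign for platelet genes (-0.39 within late ND, 0.25 within untreated), NK genes (0.16 and -0.10) and basophil and eosinophil genes (0.63 and -0.13).

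Genes of other tissues that a cheek bleed could carry were checked too. Of 15 skin and sebaceous gland genes 6 could be tested, none passed, all 6 were below 0 and the median was -2.22. The lipid desaturase Scd3 was at -2.63 (SE 1.05, adjusted p = 0.424 by edgeR) and the keratin Krt79 at -2.37 (SE 1.01, adjusted p = 0.446). The list's summed raw CPM without Rn18s-rs5 was 364 in the poor untreated library, within 161 to 4421 in the rich ones, and 516 and 756 in the poor late ND libraries against 684 to 3794. A few rich libraries stood apart: Scd3 had 644 TMM-normalized CPM in untreated replicate 5, 508 in late ND replicate 5 and 338 in early ND replicate 3. Poor libraries had 31.3, 39.2 and 51.0, and untreated replicate 1, a rich library, had 24.0. Without late ND replicate 5 Krt79 was at -1.62. Of the 15 genes 1 was at 0 in all libraries and 6 in at least 1 poor library. Of 10 skeletal muscle genes 7 were tested and none passed, with a median of 0.36 that was 0.81 within late ND and -0.48 within untreated. The part of skin RNA in the class difference was not tested. Heat shock genes, in a list of 20 with immediate early genes of which none passed, gave the lowest values there, Hspa1a at -2.09 (adjusted p = 0.395) and Hspa1b at -1.71 (adjusted p = 0.395), at mean counts of 11.5 and 30.6.

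**Figure D4:**
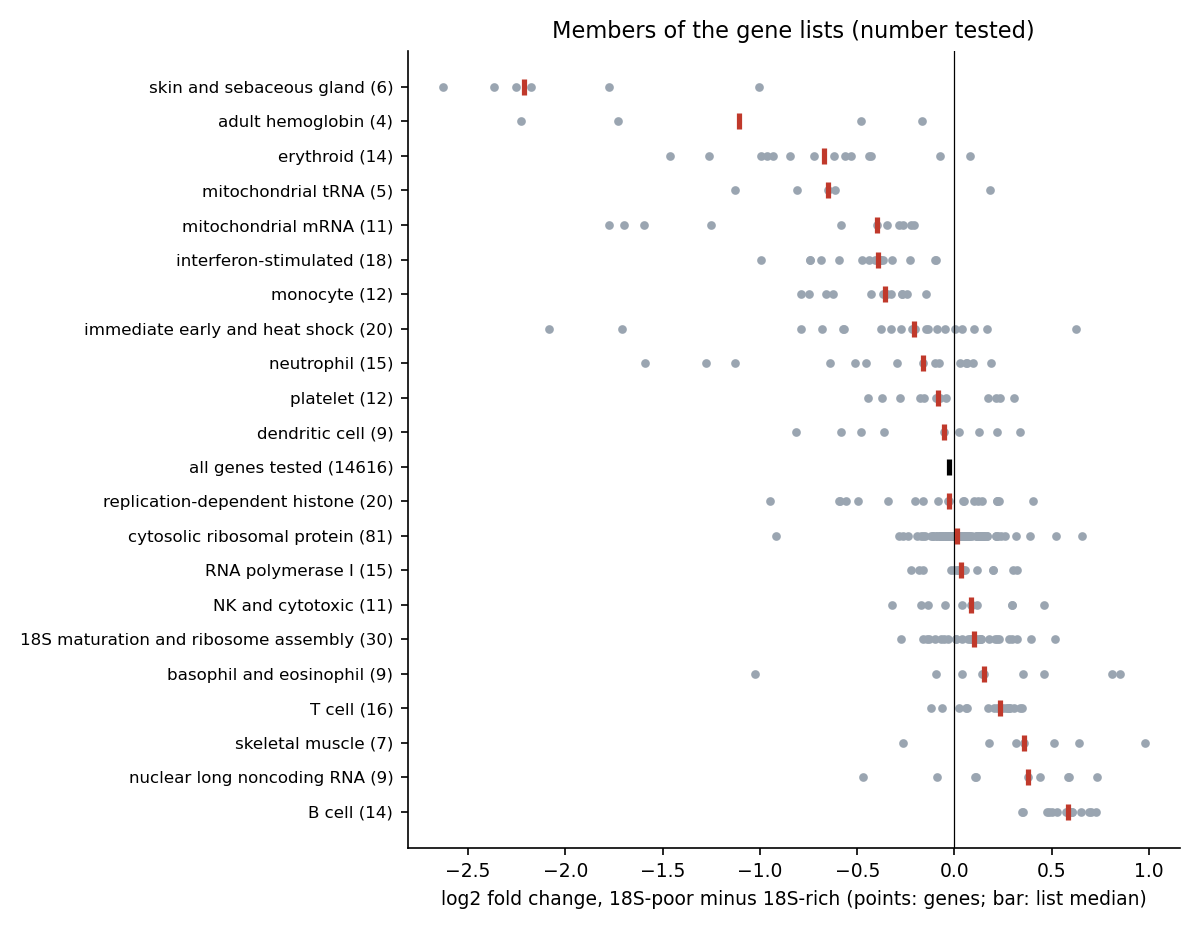
Each point is the log2 fold change (18S-poor minus 18S-rich) of 1 member of a gene list, red bars are list medians, the black bar is the median of all 14616 genes, and the number tested is in brackets. Mitochondrial rRNA, at -5.05 and -4.73, is not drawn, and medians run from -2.22 for skin genes to 0.58 for B cell genes.

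The class differences within untreated and within late ND were compared over all genes. The correlation expected without a class effect was not computed, so the values are a description only. Across 14616 genes the log2 fold changes within late ND and within untreated had a Pearson r of 0.52 and a Spearman rho of 0.33, a description across genes that share libraries and are not independent. By G and C content, the median log2 fold change ran from -0.05 to 0.00 over 5 equal bins of the genes, and by exon length from -0.06 to -0.01. By mean count the lowest bin stood at -0.12 and the others between -0.05 and 0.00. The genes at an unadjusted p under 0.05 by edgeR were less evenly spread. From the lowest to the highest G and C bin, those higher went from 79 to 199 and those lower from 166 to 175. From the shortest to the longest exon bin, those higher went from 146 to 77 and those lower from 145 to 230.

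**Figure D5:**
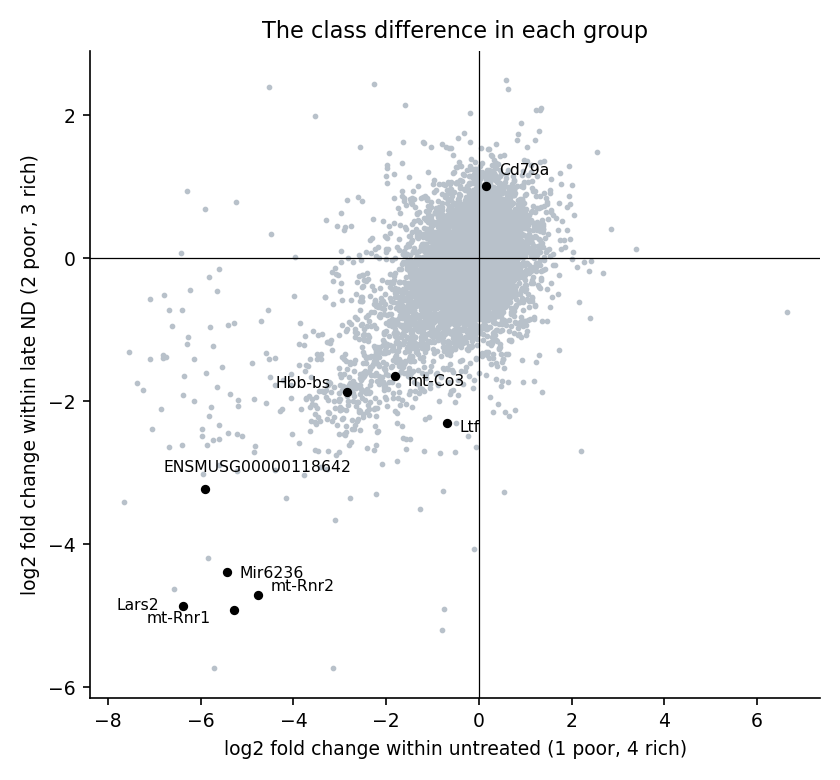
Each point is 1 of 14616 genes, with its log2 fold change (18S-poor minus 18S-rich) within untreated (1 poor, 4 rich) across and within late ND (2 poor, 3 rich) upward. The mitochondrial rRNAs lie far to the lower left (-4.77 and -4.71 for mt-Rnr2), whereas Cd79a is at 0.16 within untreated and 1.02 within late ND.

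Late ND was compared with untreated blood, the groups that held poor libraries, with and without those libraries. Unlike in the fits of class, Rn18s-rs5 was kept in the counts, scaling and tests of this comparison. With the rich libraries alone (3 against 4), edgeR called 0 of 13051 genes higher and 0 lower (0% each), with 956 (7.33%) and 961 (7.36%) at an unadjusted p under 0.05, and DESeq2 called 140 and 334. Under plain library totals edgeR called 5890 higher and 58 lower, without a count filter 202 and 295, with a replicate block 63 and 154, and without untreated replicate 5 it called 94 and 341. With all 18S-poor and 18S-rich libraries, that is 5 and 5, the TMM-scaled fit called 134 of 13547 genes higher (0.989%) and 272 lower (2.01%). Before adjustment 8.69% of the genes were past 0.05 in the higher and 8.28% in the lower direction. These fits differ in the number of libraries as well as in class, so the counts do not show an effect of class. For mt-Rnr2 the late ND minus untreated log2 fold change was -0.62 (SE 0.38) in rich libraries and -1.01 (SE 0.98) in all, and for mt-Rnr1 it was -0.66 (SE 0.35) and -1.04 (SE 1.03). Both SEs were larger with the poor libraries in the fit. Cd79a was at -0.57 (SE 0.25) in rich and -0.08 (SE 0.28) in all libraries, and Ltf at -0.04 (SE 0.64) and -0.50 (SE 0.64), none of these past the test.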

How the data were processed

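RNA from the whole blood of 15 mice was read in pairs of 150 bases. Per the labels and the submitters' processing notes, the authors aligned reads with STAR 2.7.9 to a GRCm39 index (mm10 is also named), sorted them with SAMtools 1.7 and deposited 1 raw count per gene and library from HTSeq 0.13.5. The strand setting and annotation release are not given in the sources used here. Libraries held 5527108 to 13924361 gene counts. For the shares of gene classes in counts without Rn18s-rs5, the widest Wilson 95% interval was 0.0418 percentage points to either side, counting error only. The 5 summary lines of each file were left out of totals. Of 55416 gene identifiers 54749 matched GENCODE M39, which gave names and coordinates.

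The members and gene lists were chosen with earlier results of these data known. Rn18s-rs5, whose raw CPM set the classes, was removed before TMM scaling in the poor minus rich fits, except where it is said to be kept. The late ND minus untreated fits kept it in their counts, scaling and tests. Genes that passed edgeR's filterByExpr were tested by quasi-likelihood (edgeR 4.0.16, limma 3.58.1, R 4.3.3) with group and class as terms, or class within group, and adjusted by Benjamini-Hochberg over all genes tested. DESeq2 1.42.0 was an alternative. The 23 library measures were compared by a two-sided exact permutation test over 50 assignments of the classes within untreated and late ND, where the smallest p is 0.02. Python 3.11.15 with scipy 1.17.1 was used. Genes were named if they belonged to the ribosomal RNA, hemoglobin or structural RNA lists, were among the 12 largest called changes each way with at least 50 counts and poor libraries outside the range of the rich ones in both groups (or the 5 smallest p where fewer than 5 were called), or had 1 of the 4 smallest p of another list. Mir6236, mt-Co1, Elovl5, Psapl1 and Bpifa6 were added after their values were seen, and some genes that the rule named are not reported here. On simulated counts of 14616 genes with 40 changed at each size, the poor minus rich fit recovered 32 at a log2 change of 1, 27 at -1 and 40 each at 2, 4 and -2, with 6 false calls. The simulation gave each gene 1 mean level with no group difference and changed only genes averaging 50 or more counts. Its recovery therefore does not give the power of the fit on the real libraries.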

Additional observations from a re-analysis of the deposited data

Results flagged for a closer look

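A Dixon test marked libraries whose gap to the nearest other library of their group was wide relative to the group's range. It was applied to 111 measures and groups, and chance marks about 1 in 20 groups. Untreated replicate 2 was marked most often, and the class rule had already chosen it by its 18S level. Its gap was 0.827 of the range for mt-Rnr1, 0.834 for mt-Rnr2 and 0.83 for the ratio of mitochondrial rRNA to mRNA, in which it was the lowest of untreated. It was also the lowest for the ratios of Hbb-bs to Hba-a1 (0.876) and of Hbb-bt to Hba-a2 (0.736). It was the highest of untreated for gene counts (0.762), uniquely aligned pairs (0.813) and Pabpn1 (0.749).

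Another 4 marks fell on other groups. Late ND replicate 2 was the lowest of its group for the ratio of mt-Rnr1 to mt-Rnr2 (0.769), at -1.92 on the log2 scale. Late ND replicate 5, an 18S-rich library, was the lowest for Hba-a1 (0.798). The share of uniquely aligned pairs that were ambiguous between genes was highest in early ND replicate 5 (0.776), at 3.03%, and in late ND replicate 3 (0.733), at 1.79%.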

How the results depend on the processing

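The choices tried were the scaling, the count filter, the test, Rn18s-rs5 kept in, the group term, the replicate number, the libraries, and, chosen after seeing the data, the hemoglobin genes left out. mt-Rnr1 and mt-Rnr2 were called lower in every setting of the 3 against 12 comparison. Genes lower there numbered 46 with DESeq2, 5 with Rn18s-rs5 kept (1 of them Rn18s-rs5, which chose the classes, so that its call is no test), 5 with library totals (Hbb-bs among them), 7 with no count filter (Mir6236, mt-Atp6 and mt-Co3 among them) and 2 to 4 leaving out a library, and DESeq2 called 43 higher. Lars2 was not called without a group term (adjusted p = 0.0798), with a replicate block (0.342) or without early ND libraries (0.148). Within late ND, genes lower numbered 20 with DESeq2, 4 with library totals, 8 with no filter, 0 in a fit on late ND alone, 0 without early ND libraries and 0 to 4 leaving out a library, with 16 higher by DESeq2. The 0 came without late ND replicate 2 and the 4 without untreated replicate 1. Within untreated, genes lower numbered 4 with DESeq2, 2 with library totals, 4 with no filter, and 0 to 1 leaving out a library (1 without late ND replicate 2 or 3). Late ND minus untreated in rich libraries called 140 higher and 334 lower with DESeq2, 134 and 272 with all libraries, 5890 and 58 with library totals, 202 and 295 with no filter, and 0 to 94 and 0 to 341 leaving out a library, the highest without untreated replicate 5. Listed genes called numbered 6 with DESeq2 and 4 with no filter in place of 2. Of 10 library measures that passed, 9 could be taken with hemoglobin left out of the total. Only the mitochondrial rRNA, ribosomal protein and long noncoding RNA shares use that total, so the others could not change. The mitochondrial rRNA share kept an exact p of 0.02 and the ribosomal protein and long noncoding RNA shares did not. The measures still at 0.02 rose to an adjusted p of 0.0571. None passed leaving out 1 of the 10 untreated and late ND libraries (lowest adjusted p = 0.0575). Leaving out 1 of those libraries leaves fewer assignments, so that the smallest exact p is larger. The early ND libraries do not enter the exact test. The causes were not tested.

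The replicate numbers were not taken to pair the libraries: same-number correlations ran from -0.616 to 0.535, and 3 of 15 were highest with their own number. A replicate block left 2 genes lower (mt-Rnr1 and mt-Rnr2) in the 3 against 12 comparison and 0 within late ND, and gave 63 higher and 154 lower for late ND minus untreated.

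Depth limited low genes: Mir6236 had 0 to 9 counts in the poor libraries, and at fewer than 3 counts a level cannot be told from 0.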
